A study of Homo sapiens with 6 samples.

Results

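Small heat shock proteins and BAG proteins are the holding and handover partners of the HSP70 system. The genes described here are the 10 rows of the deposited table named HSPB1, CRYAB, HSPB8 and HSPB11 (4 genes) and BAG1, BAG2, BAG3, BAG4, BAG5 and BAG6 (6 genes), chosen by name out of 58735 genes in all. Polyadenylated RNA from A375, a human malignant melanoma cell line, was sequenced. One group, PAL, was treated with a Ringer's lactate solution that had been exposed to low-temperature plasma, a partly ionised gas near room temperature, and the other was the control, cells that did not receive it. Each group had 3 libraries, with 16053009 to 17711389 assigned reads in PAL and 15064971 to 16081733 in control. With dose, exposure time, control medium and separate cultures not given in the sources used here, p-values reflect only how these libraries scatter, and that scatter may be technical. The PAL column names of the deposited table carry a number that the labels do not explain.

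Small heat shock proteins bind unfolding proteins without using ATP and keep them soluble. Most BAG proteins carry a domain that binds HSP70 and makes it release its nucleotide and its client. Through other domains, individual BAG proteins send the client to the proteasome, to autophagy or to membrane insertion. BAG3 joins both families, since it also binds HSPB8 and other small heat shock proteins and passes their clients to HSP70. Several of these genes are classic targets of the heat shock factor HSF1, which binds inverted repeats of the bases GAA.

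The labelled cell type was checked first. SOX10, a transcription factor of the melanocyte lineage, was at 107 to 108 FPKM in PAL and 86.4 to 89.8 FPKM in control, where FPKM is reads per gene scaled by gene length and library size. Of 8 melanocytic markers, 3 reached a group mean of 1 FPKM (SOX10, MITF and S100B), while TYR was listed at 0 in every library and MLANA, DCT, PMEL and TYRP1 were below 0.5. Among markers of other skin cells, the 4 keratinocyte genes summed to 30.9 to 33.4 FPKM in PAL and 31.5 to 36.4 in control, mostly from KRT10. Those of leukocytes and endothelium stayed below 0.3 in sum. Fibroblast markers summed to 3.06 to 4.47 FPKM in PAL and 4.14 to 4.69 in control, mostly from LUM. SOX10 was called higher in PAL, and S100B and KRT14 lower, and their part in the results below was not tested. HSPA6, an HSP70 gene that is silent in most unstressed cells, was at 20.7 to 73.2 FPKM in PAL libraries and at 1685 to 1999 in control libraries. The group labels were taken as given, and the condition of the control cultures was not tested.

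The series title names a fall of heat shock proteins, so the direction reported for these genes is not independent evidence of it. Of the 10 genes, 5 were lower in PAL and 1 was higher in limma's test across all 12258 genes tested, at an adjusted p below 0.05. Of all tested genes 25.9% were called, 14.5% lower and 11.4% higher. Rises were thus 44.0% of the calls, against 69.7% as TPM, 59.2% after quantile normalization and 73.3% with plain read totals. For the same 6 members the groups did not overlap, 5 with all PAL values below control and 1 with all above, against 44.9% of all tested genes, 23.6% below and 21.4% above. HSPB1, CRYAB, HSPB8 and BAG3 fell, with differences between -2.41 and -1.62 on the log2(FPKM + 1) scale, while 1.58% of tested genes were called with a fall of at least 1. BAG1 fell by 0.33 and BAG5 rose by 0.19. HSPB11, BAG2, BAG4 and BAG6 did not pass. All 10 genes passed the filter on low values (1 FPKM in at least 3 libraries), CRYAB through control libraries alone. The median difference was -0.195 over the 10 genes and 0.0043 over all genes tested. In bulk RNA, fewer cells that express a gene and less RNA of it per cell cannot be told apart.

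**Figure D1:**
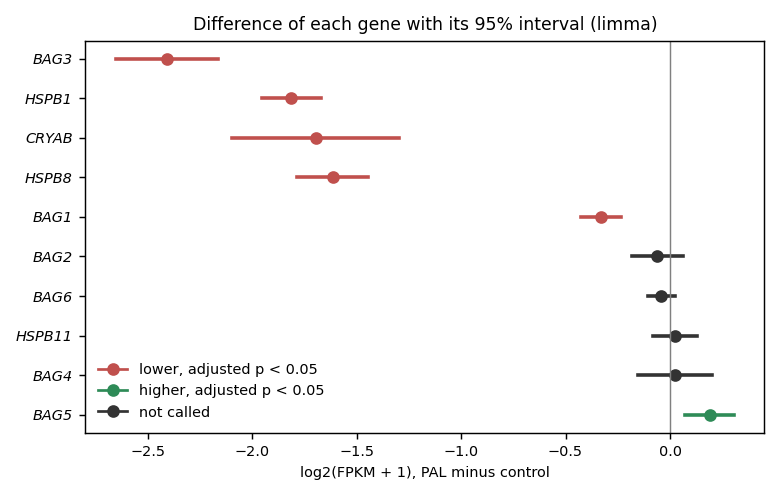
Difference between PAL and control for each of the 10 genes, in log2(FPKM + 1), with the 95% interval from limma (3 libraries per group). BAG3, HSPB1, CRYAB and HSPB8 lie between -2.41 and -1.62, BAG1 at -0.33, BAG5 at 0.19, and the intervals of the other 4 include 0.

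The sequence before the RefSeq start is shown for 4 of the genes, because it holds or lacks the paired GAA repeat that a heat shock factor can contact, and these are BAG3, HSPB1 and HSPB8, which fell, and BAG2, which did not pass. RefSeq promoter windows on GRCh38.p14 were at hand for 7 of the 10 genes, those of HSPB1, HSPB8, BAG1, BAG2, BAG3, BAG5 and BAG6. The 250 bases before each start were searched for GAANNTTC and TTCNNGAA. Only exact matches were counted, so a repeat with a changed base was missed, and no match does not mean no binding site. Each motif reads the same on both strands. Capitals mark a match, and the strand is that of the gene, plus in all 4. For HSPB1 (chr7:76302423-76302543) and BAG3 (chr10:119651130-119651369), the bases up to the first annotated exon are given. For HSPB8 (chr12:119178832-119178861) and BAG2 (chr6:57172191-57172220), 30 bases around the match are given. RefSeq starts can differ from the gene starts of the deposited table. Of the 4 shown, those of HSPB1, HSPB8 and BAG3 lie further into the gene. The HSPB8 stretch thus lies before the RefSeq start but inside the gene's coordinates given below, within an annotated exon. The far end of the BAG2 window also lies in an annotated exon.
HSPB1: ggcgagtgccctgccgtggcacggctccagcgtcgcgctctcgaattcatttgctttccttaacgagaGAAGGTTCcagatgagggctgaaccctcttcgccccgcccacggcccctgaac
HSPB8: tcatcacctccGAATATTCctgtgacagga
BAG2: tcgaccgatagGAACCTTCgcgtgggggga
BAG3: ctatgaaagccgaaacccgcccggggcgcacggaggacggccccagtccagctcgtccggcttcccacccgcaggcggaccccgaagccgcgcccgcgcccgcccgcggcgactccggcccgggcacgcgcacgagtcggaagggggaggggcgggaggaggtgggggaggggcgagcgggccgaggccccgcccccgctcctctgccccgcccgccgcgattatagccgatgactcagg
The HSPB1 match, GAAGGTTC, began 182 bases before the RefSeq start, the HSPB8 match, GAATATTC, 88 bases and the BAG2 match, GAACCTTC, 124 bases. No match lay in the windows of BAG1, BAG3, BAG5 or BAG6. That makes 3 of 9 windows with a match, against 11.6% of 35116 windows of the same length in the RefSeq table, and 3 of 7 genes, against 14.0% of 27305 genes. All 6 HSP70 genes of the partner lists fell, and of these HSPA2 had no match. HSPA6 had 3 and HSPA8 had 4 matches, with other bases than HSPB8. HSPA1A, HSPA1B and HSPA1L hold the same bases as HSPB8, GAATATTC. The windows of HSPA1A and HSPA1L overlap, on opposite strands, and their match is the same site, found for both genes. Of the genes with a match, HSPB1 and HSPB8 fell and BAG2 did not pass, while BAG1 and BAG3 fell and had none within these windows. CRYAB, which also fell, was not searched.

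Among the small heat shock proteins, HSPB1 was the most abundant transcript. It encodes HSP27, a chaperone of stressed cells that also binds actin (ENSG00000106211, hg38 chromosome 7, 76302544 to 76304295, plus strand). HSPB1 stood at 113, 118 and 122 FPKM in PAL replicates 1, 2 and 3, against 395, 398 and 456 FPKM in control replicates 1, 2 and 3. Every PAL library was below every control library, and control replicate 3 was the highest. The means were 117 ± 4.57 FPKM in PAL and 416 ± 34.6 in control (SD, n = 3 each), a ratio of 0.282. The difference was -1.81 ± 0.06 (SE) on the log2(FPKM + 1) scale (limma adjusted p = 1.05e-05). By mean FPKM among tested genes, HSPB1 ranked 323 in PAL and 71 in control. Both processed pseudogenes named after HSPB1 were below 1 FPKM in both groups.

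HSPB8, also called HSP22, binds BAG3 and delivers clients to it (ENSG00000152137, hg38 chromosome 12, 119178642 to 119221131, plus strand). Its values were 5.70, 5.87 and 6.38 FPKM in PAL replicates 1, 2 and 3, and 18.7, 19.9 and 22.6 FPKM in control replicates 1, 2 and 3. The groups were again far apart, and replicate 3 was the highest library of each. HSPB8 averaged 5.98 ± 0.352 FPKM in PAL and 20.4 ± 1.99 FPKM in control (SD, n = 3 each), and fell by 1.62 ± 0.07 (SE) in limma with an adjusted p of 2.78e-05. A processed pseudogene, AC084880.1, lies within HSPB8 on the same strand and averaged 0.695 FPKM in PAL and 3.01 in control, so the split of reads between them is uncertain. The ratio of HSPB1 to HSPB8 within a library was 19.1 to 20.2 in PAL and 19.98 to 21.1 in control, ranges that overlap. Scaling does not enter that ratio, and an exact two-sided permutation test over libraries gave p = 0.2.

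CRYAB, or alpha-B-crystallin, is a lens and muscle chaperone that other stressed cells also make (ENSG00000109846, hg38 chromosome 11, 111908565 to 111923722, minus strand). It was low throughout, at 0.233, 0.573 and 0.608 FPKM in PAL replicates 1, 2 and 3 and at 4.66, 3.94 and 2.79 FPKM in control replicates 1, 2 and 3. These values rest on 13, 29 and 34 reads in PAL and 224, 177 and 131 in control. The exact 95% Poisson interval of the 13 reads runs from 6.92 to 22.2 and covers counting error only. The groups did not overlap, but control replicate 3 was the lowest control library here, where it was the highest for HSPB1, HSPB8 and BAG3. Since no PAL library of CRYAB reached 1 FPKM, the gene had to differ if it was to be tested. The ratio of means was 0.124. The difference was -1.70 ± 0.17 (SE) on the log2(FPKM + 1) scale (limma adjusted p = 0.000873), -2.82 with a pseudocount of 0.1 and -3.08 with voom on the recovered reads. HSPB2, which shares part of the locus on the other strand, had 0 reads in all 6 libraries.

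HSPB11, also known as IFT25, is a subunit of the intraflagellar transport complex B of cilia and is grouped with the small heat shock proteins by its name (ENSG00000081870, hg38 chromosome 1, 53916574 to 53945929, minus strand). It stood at 8.85, 8.68 and 9.18 FPKM in PAL replicates 1, 2 and 3, against 8.36, 8.74 and 9.16 FPKM in control replicates 1, 2 and 3. The groups overlapped. The difference was 0.02 with a 95% interval of -0.08 to 0.13 on the log2 scale (limma adjusted p = 0.738). That interval leaves out a fall as large as 0.1.

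The summed FPKM of the 4 genes was 133 ± 5.23 in PAL and 449 ± 36.0 in control (SD, n = 3 each). HSPB1 made up 88.4% ± 0.193 of that sum in PAL and 92.7% ± 0.277 in control. HSPB8 made up 4.5% ± 0.115 in PAL and 4.54% ± 0.131 in control, and HSPB11 6.71% ± 0.221 in PAL and 1.95% ± 0.0824 in control. Of 7 other small heat shock protein genes listed for comparison, 0 reached the filter. HSPB2, CRYAA and ODF1 had 0 reads in every library, which allows up to 3 reads per group. HSPB7 and HSPB9 had 0 reads in PAL and 2 and 1 in control, while HSPB6, a muscle form, averaged 0.421 FPKM in PAL and 0.643 in control and HSPB3, another muscle form, 0.213 in PAL and 0.475 in control.

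**Figure D2:**
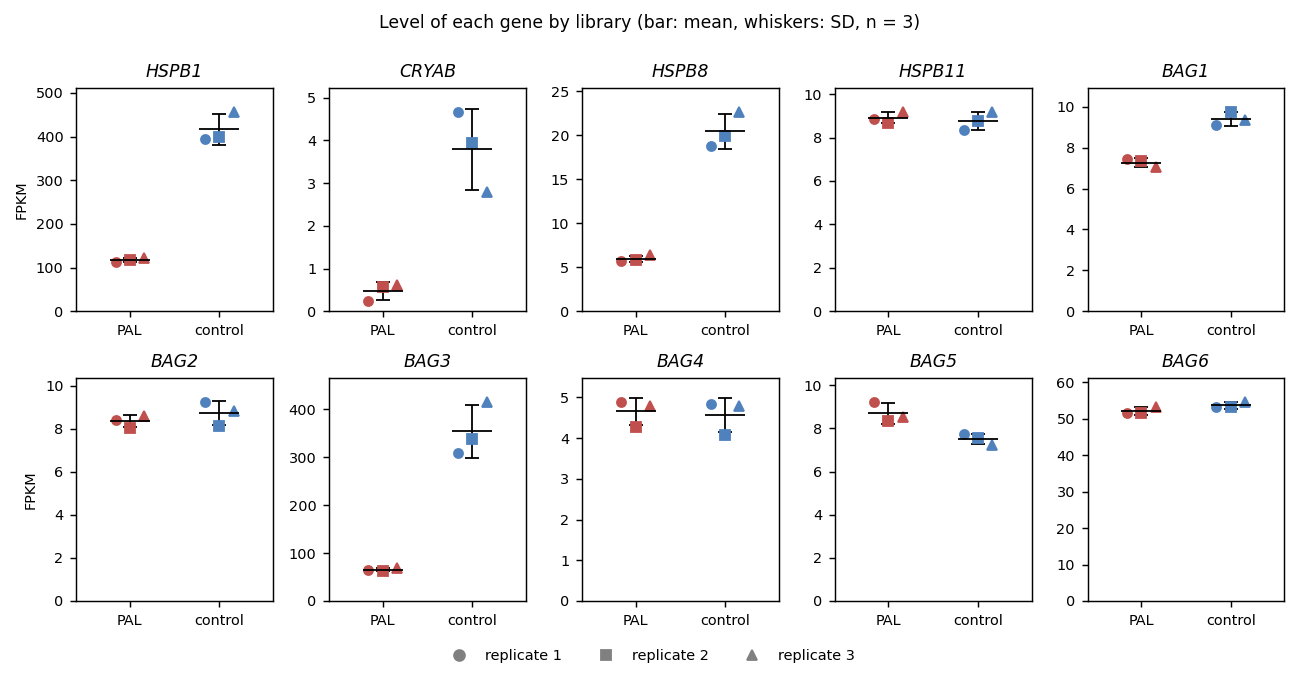
FPKM of each of the 10 genes in each library, with PAL left of control, markers for replicates 1 to 3, and mean and SD per group (n = 3). Every axis starts at 0; PAL lies below control without overlap for HSPB1, CRYAB, HSPB8, BAG1 and BAG3, above it for BAG5, and overlaps it for the other 4.

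BAG3 had the largest fall of the 10 genes on the log2(FPKM + 1) scale, while CRYAB had the lower ratio of means, 0.124 against 0.185. CRYAB also had the larger fall with a pseudocount of 0.1 (-2.82 against -2.42), as TPM (-2.42 against -2.35) and with voom (-3.08 against -2.42). BAG3 couples HSP70 and small heat shock proteins to selective autophagy (ENSG00000151929, hg38 chromosome 10, 119651370 to 119677819, plus strand). BAG3 measured 65.1, 62.5 and 69.1 FPKM in PAL replicates 1, 2 and 3, against 310, 338 and 416 FPKM in control replicates 1, 2 and 3. No PAL library came near a control library, and the control libraries spread more widely than the PAL ones. The means were 65.6 ± 3.35 FPKM in PAL and 355 ± 55.2 FPKM in control (SD, n = 3 each), a ratio of 0.185. The difference of -2.41 ± 0.10 (SE) on the log2 scale had an adjusted p of 2.36e-05 in limma and ranked 22 among the 1780 falls called. BAG3 ranked 634 of the tested genes by mean FPKM in PAL and 83 in control.

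BAG1, the founding member, links HSP70 to the proteasome and binds BCL2 (ENSG00000107262, hg38 chromosome 9, 33247820 to 33264720, minus strand). It stood at 7.44, 7.33 and 7.05 FPKM in PAL replicates 1, 2 and 3, against 9.10, 9.74 and 9.36 FPKM in control replicates 1, 2 and 3. All PAL values were below all control values, at a much smaller distance than for BAG3. BAG1 fell by 0.33 ± 0.04 (SE) in limma, with 0.00215 as its adjusted p. It was called lower in each of the 18 alternatives.

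BAG5, unlike its relatives, carries several BAG domains in 1 protein (ENSG00000166170, hg38 chromosome 14, 103556544 to 103562831, minus strand). BAG5 measured 9.24, 8.34 and 8.52 FPKM in PAL replicates 1, 2 and 3, against 7.72, 7.56 and 7.24 FPKM in control replicates 1, 2 and 3. All PAL values lay above all control values. BAG5 rose by 0.19 ± 0.05 (SE) on the log2 scale (limma adjusted p = 0.0299). The call was lost on leaving out any 1 library other than PAL replicate 2. The adjusted p of BAG5 was then 0.0853 for PAL replicate 1 and 0.0587 for PAL replicate 3, and 0.0523, 0.0739 and 0.0718 for control replicates 1, 2 and 3. Over the 18 alternatives it lay between 0.00842 and 0.105. Part of BAG5 overlaps KLC1 on the other strand, which averaged 1.78 FPKM in PAL and 1.63 in control, with the use of strand in counting not given in the sources used here.

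BAG6 is the scaffold of a complex that guides tail-anchored membrane proteins to insertion and mislocalised proteins to degradation (ENSG00000204463, hg38 chromosome 6, 31639028 to 31652705, minus strand). BAG6 measured 51.7, 51.5 and 53.3 FPKM in PAL replicates 1, 2 and 3 and 53.1, 53.2 and 54.7 FPKM in control replicates 1, 2 and 3. The groups overlapped, and the 95% interval of the difference ran from -0.10 to 0.02 on the log2 scale (limma adjusted p = 0.299). BAG2, which restrains the ubiquitin ligase STUB1, averaged 8.35 ± 0.280 FPKM in PAL and 8.75 ± 0.560 in control, with an interval of -0.18 to 0.06 (adjusted p = 0.436). BAG4, a silencer of death receptors, averaged 4.65 ± 0.335 FPKM in PAL and 4.57 ± 0.429 in control, with an interval of -0.15 to 0.20 (adjusted p = 0.839). BAG2 lies on chromosome 6 (ENSG00000112208, 57172326 to 57189833, plus strand) and BAG4 on chromosome 8 (ENSG00000156735, 38176533 to 38213301, plus strand). On the other strand, BAG2 overlaps RAB23, which averaged 2.644 FPKM in PAL and 2.665 in control, and ZNF451-AS1, at 0.0889 and 0.115. BAG4 shares 198 bases with LSM1 on the other strand, which averaged 21.6 FPKM in PAL and 21.3 in control, above BAG4 itself. A pseudogene that also overlaps BAG4, AC084024.2, was at 0 in both groups. Whether reads of these genes entered the BAG2 and BAG4 values was not tested.

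With BAG3 left out, the summed FPKM of the other 5 BAG genes was 81.1 ± 1.5 in PAL and 83.9 ± 1.09 in control (SD, n = 3 each). With it, the sum was 147 ± 4.75 in PAL and 439 ± 55.9 in control. BAG3 made up 44.7% ± 0.858 of the family's summed FPKM in PAL and 80.7% ± 2.22 in control, while BAG6 made up 35.6% ± 0.599 in PAL and 12.3% ± 1.31 in control. The ratio of BAG3 to BAG1 within a library was 8.53 to 9.80 in PAL and 34.0 to 44.5 in control. The ratio of BAG3 to its partner HSPB8 was 10.7 to 11.4 in PAL and 16.5 to 18.4 in control, lower in each PAL library than in any control library. That of HSPB1 to BAG3 was 1.73 to 1.89 in PAL and 1.10 to 1.27 in control. Each of these 3 ratios gave p = 0.1 in an exact two-sided permutation test over libraries, the smallest value that 3 libraries against 3 allow. With 8 ratios computed, 7 of them at 0.1, none can pass an adjusted threshold of 0.05.

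**Figure D3:**
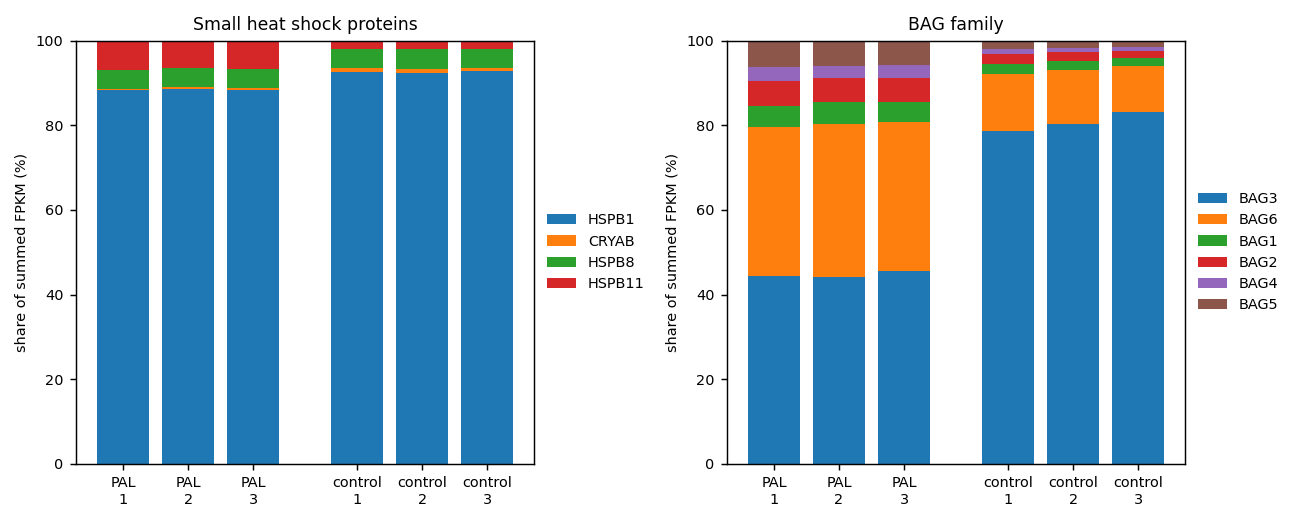
Share of the summed FPKM of the 4 small heat shock protein genes (left) and of the 6 BAG genes (right) held by each gene, 1 bar per library, PAL left of control. BAG3 holds 44.0% to 45.7% of the BAG sum in PAL libraries and 78.7% to 83.1% in control libraries.

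The spread between replicates was wider than counting error for BAG3 and HSPB1. For BAG3 in control the coefficient of variation was 15.6%, against 0.817% from counting, and in PAL 5.10% against 1.76%. For HSPB1 it was 3.89% in PAL, against 1.71% from counting, and 8.31% in control, against 0.978%. BAG6, at a similar depth in PAL, varied by 1.98% in PAL and 1.65% in control, close to its counting error of 1.42% and 1.51%. In both groups replicate 3 was the highest library for HSPB1, BAG3 and HSPB8, as it was for HSPH1 and HSPA8. The same held for HSPB11 and BAG6, which did not pass, but not for CRYAB, BAG1, BAG2, BAG4 or BAG5. Replicate 3 stood 3.05% (PAL) and 4.64% (control) above its group mean for HSPB11, and 2.28% and 1.91% above for BAG6. Control replicate 3 stood 17.4% above its group mean for BAG3 and 9.59% above for HSPB1, but 26.6% below for CRYAB and 10.4% below for HSPA6. PAL replicate 3 stood 5.43% above its group mean for BAG3 and 3.58% above for HSPB1, against 81.2% above for HSPA6. Without both libraries numbered 3, HSPB1, CRYAB, HSPB8, BAG1 and BAG3 were called lower and no member was called higher.

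**Figure D4:**
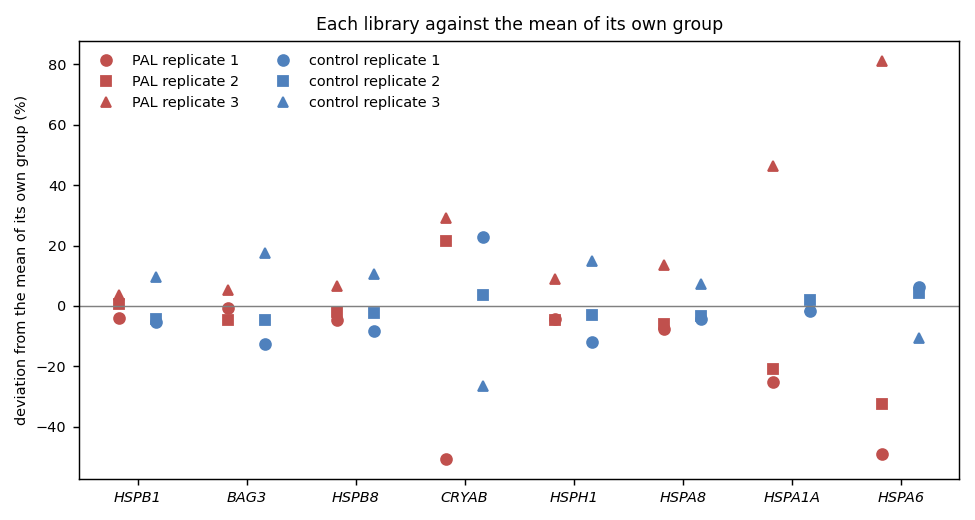
Deviation of each library from the mean of its own group, in percent, for 4 of the genes and 4 HSP70 system genes. PAL replicate 3 stands 81.2% above its group for HSPA6 and 5.43% above for BAG3, and control replicate 3 stands 17.4% above its group for BAG3 and 26.6% below for CRYAB.

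Partner genes came from 8 lists of 66 genes in all, of which 50 were tested. In limma 15 of the 50 were lower in PAL and 4 higher, against 14.5% lower and 11.4% higher of all tested genes. The median difference was -0.06 on the log2 scale, against 0.0043 over all tested genes. All 6 HSP70 genes that the BAG domain can bind were lower, with a median difference of -3.27. HSPA1A averaged 65.3 ± 26.1 FPKM in PAL and 1386 ± 25.4 in control, and HSPA8, the constitutive form, 674 ± 79.3 in PAL and 1041 ± 66.7 in control. HSPA1A and HSPA1B are nearly identical, so the split of reads between them is uncertain. The ratio of BAG3 to HSPA8 was 0.0904 to 0.105 in PAL and 0.311 to 0.372 in control. HSPA1B, HSPA1L, HSPA2 and HSPA6 fell by 4.43, 2.10, 1.31 and 5.71 on the log2 scale. HSPA1L reached 1 FPKM in control libraries only. Like CRYAB, it therefore had to differ if it was to be tested, so its place among the 6 is not independent of the filter.

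Of the 4 other nucleotide exchange factors of HSP70, 2 were lower and 1 higher, against 14.5% lower and 11.4% higher of all tested genes. HSPH1, or HSP110, averaged 72.9 ± 5.71 FPKM in PAL and 274 ± 37.2 in control, and HSPA4L, its relative, 1.73 ± 0.0296 in PAL and 5.09 ± 1.40 in control. HSPBP1, which exchanges the nucleotide of HSP70 without a BAG domain, rose by 0.15 (limma adjusted p = 0.0325), a call lost in 8 of 18 alternatives.

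Of 13 tested partners of BAG3, 4 were lower and 1 higher, with 25.9% of all tested genes called in either direction. MAP1LC3B, the LC3 protein of autophagosomes, averaged 16.6 ± 0.911 FPKM in PAL and 29.5 ± 1.10 in control. LATS2, a Hippo pathway kinase, fell by 0.67, YWHAG, a 14-3-3 protein, by 0.23, and FLNA, the actin crosslinker filamin A, by 0.12. The call of LATS2 was lost without PAL replicate 2 (adjusted p = 0.0568) and with no filter (adjusted p = 0.0569). That of FLNA was lost in 7 of 18 alternatives, among them TPM, quantile normalization and plain read totals. STUB1, the ubiquitin ligase CHIP, rose by 0.10, a call lost in 9 of 18. SQSTM1, the autophagy receptor p62, stood at 123 ± 3.65 FPKM in PAL and 123 ± 3.31 in control.

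Around BAG6, 1 of 6 tested genes was lower and 1 higher. For each list in this paragraph, the shares over all tested genes were 14.5% lower and 11.4% higher. CAMLG, a membrane receptor for tail-anchored proteins, averaged 15.3 ± 0.865 FPKM in PAL and 19.9 ± 0.445 in control, and UBL4A, a subunit of the BAG6 complex, 39.8 ± 0.199 in PAL and 33.7 ± 0.678 in control. Of 5 tested partners of BAG1, BAG2, BAG4 and BAG5, 1 was higher. It was TNFRSF1A, the TNF receptor that BAG4 binds, at 33.1 ± 0.616 FPKM in PAL and 25.1 ± 0.640 in control. Of 13 tested subunits that share complex B with HSPB11, 1 was lower, IFT74 by 0.18, a call lost in 13 of 17 alternatives. Of 3 tested heat shock factor genes, HSF2 fell by 0.23, a call lost in 10 of 18 alternatives. HSF1, the main factor, stood at 21.6 ± 0.237 FPKM in PAL and 20.1 ± 1.28 in control (adjusted p = 0.153), and was called higher in 5 of 18 alternatives, those as TPM, after quantile normalization, with plain read totals, without control replicate 3 and without both libraries numbered 3.

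**Figure D5:**
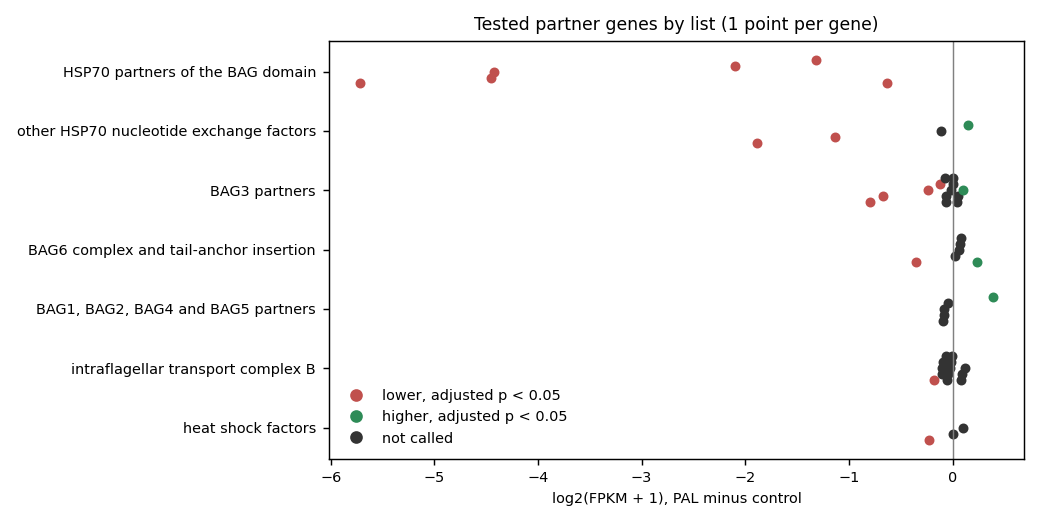
Difference between PAL and control in log2(FPKM + 1) for the 50 tested partner genes, 1 point per gene, by list, coloured by limma's call. All 6 HSP70 genes lie left of 0 and were called lower, whereas 12 of the 13 complex B subunits were not called. Of all tested genes, 25.9% were called.

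Likeness between genes was measured as the root mean square distance over the 6 libraries between log2(FPKM + 1) values, each centred on its gene's mean. The protein-coding genes nearest to BAG3 were USPL1 (0.103), NR4A1 (0.113) and HERPUD1 (0.115). USPL1 averaged 4.57 ± 0.257 FPKM in PAL and 27.5 ± 2.01 in control. Nearest to HSPB1 were JUND (0.0589), TNFSF9 (0.0721) and HSPH1 (0.0766), and those near CRYAB included ADM (0.136) and NFKBIA (0.146). JUND averaged 27.4 ± 1.74 FPKM in PAL and 102.0 ± 2.54 in control. These distances describe 6 libraries in 2 groups and carry no test.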

How the data were processed

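The deposited FPKM values, 1 per gene and library, hold the authors' reads per gene, scaled to gene length and library size. The build is hg38, per the submitters' processing notes; aligner, counter and strand setting: not given in the sources used here. All 58735 genes have the same start, end and strand in GENCODE release 29. Multiplied by gene length, 100% of values were whole numbers of 1 library-specific step (tolerance 0.01), which gave reads per gene. Genes with at least 1 FPKM in at least 3 libraries (12258) were tested with limma 3.58.1 in R 4.3.3 on log2(FPKM + 1), with a variance trend, two-sided, with Benjamini-Hochberg adjustment over all genes tested and 4 residual degrees of freedom. The fit was tested on simulated data with the same spread beyond counting for every gene and fewer changed genes than were called here. That test therefore does not give the error rate in these data. Fold changes on that scale understate low genes. Replicates differed by more than counting noise in every pair (chi-square over its degrees of freedom, 1.92 to 3.71). Named genes are the 10 genes, every called gene of the partner lists, or the 2 highest where a list had none, and the 3 nearest genes to each of the 3 genes with the largest differences on the log2(FPKM + 1) scale, of which 1 is not reported here. SQSTM1, HSF1 and genes without reads were added after their values were seen. The genes and lists were chosen with earlier results of these data known. Alternatives covered pseudocount, filter, scaling, biotype, variance trend, replicate block, voom on recovered reads and leaving out libraries. Figures were drawn with matplotlib 3.10.9.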

Additional observations from a re-analysis of the deposited data

How the results depend on the processing

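Over 18 alternatives, HSPB1, HSPB8, BAG1 and BAG3 stayed lower and called, as did CRYAB in the 17 that tested it; a filter at 5 FPKM left CRYAB and BAG4 out, so 4 genes were then called lower. HSPB1 ranged from -1.85 to -1.70, HSPB8 from -1.77 to -1.54, BAG3 from -2.50 to -2.29, BAG1 from -0.37 to -0.25 and CRYAB from -3.08 to -1.57. HSPB11, BAG2, BAG4 and BAG6 passed in none. With no filter, 2103 genes in all, 0 of the 10 genes as higher (BAG5 at 0.189, adjusted p = 0.0698) and 2 partner genes as higher were called. Without both libraries numbered 3, 0 of the 10 were called higher, and BAG5 stood at 0.179 (adjusted p = 0.105). Leaving out 1 library at a time gave 1855 to 2789 genes in all, 0 to 1 of the 10 as higher, BAG5 at 0.149 to 0.215, and 2 to 4 partner genes as higher. Against 3179 genes called in all, PAL replicate 1 left out gave 1972, PAL replicate 2 left out gave 1855, and 2051 were called without control replicate 2. Partner genes called higher numbered 9 as TPM, 7 after quantile normalization, 9 with plain read totals and 2 with no variance trend, against 4. Same-numbered libraries did not deviate together over all tested genes (correlations -0.0447 to 0.0273). With 3 libraries per group, that check cannot tell whether the numbers pair the libraries. The replicate block gave 2131 genes in all and 2 partner genes as higher, and kept every call among the 10. The cause of these shifts was not tested. Depth limits CRYAB in PAL most, at 13 to 34 reads per library.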
